A study of Mus musculus with 8 samples.

Results

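The 35 genes described here encode the machinery and the regulators of DNA replication and S phase, measured as RNA in mouse OT-I CD8+ T cells. They were taken by symbol from a table of 41730 genes and other features. Each of the 35 symbols occurred once in the table, and all 35 genes passed the filter on low counts and were among the 12162 genes tested. Counts of a member in a library ranged from 215 to 20779 reads.

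OT-I cells carry a transgenic T cell receptor for a peptide of ovalbumin, SIINFEKL. They had been co-cultured with dendritic cells derived from bone marrow and pulsed with that peptide, then purified by flow cytometry. One set of 4 libraries (replicates 5 to 8) came from co-cultures with 2 µM RGX-104, a compound that activates the liver X receptors (LXR), and the other set of 4 (replicates 1 to 4) from co-cultures with the solvent DMSO. All 8 libraries share the OT-I genotype and the exposure to peptide-pulsed dendritic cells, and the compound was present for both cell types. The age of the animals, the length of the culture and whether the libraries of a group came from separate cultures are not given in the labels, so p-values measure only how these samples vary, and that variation may be technical.

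Total counts were 13144704 to 14947537 in RGX-104 libraries and 14867824 to 15966972 in DMSO libraries (exact two-sided permutation test of the means, p = 0.0571, n = 4 per group; the smallest p this design can give is 0.0286). The 11 CD8 T cell markers looked at were all detected. Their summed level was 2394 to 2481 CPM (counts scaled to a common library size) in RGX-104 libraries and 2040 to 2091 in DMSO libraries. At an adjusted p under 0.05 in edgeR's test, 4 of the 11 were called higher, against 0.888% of all genes tested. The part of these markers in the results was not tested. Of 11 dendritic cell markers, 9 were detected, with a sum of 77.0 to 94.8 CPM in RGX-104 and 82.7 to 99.4 in DMSO, most of it Cst3. Xcr1 and Clec9a had 5 reads each over all libraries, and Cd74 averaged 5.58 CPM in RGX-104 and 6.52 CPM in DMSO. Zbtb46, Fscn1, Ccl22 and Flt3 averaged 3.94, 2.37, 1.61 and 0.48 CPM in RGX-104, against 5.16, 4.23, 3.66 and 0.874 CPM in DMSO. Itgax and Cst3 averaged 1.66 and 68.9 CPM in RGX-104, against 1.11 and 68.0 CPM in DMSO. Of the 7 dendritic cell markers tested, none was called, against 2.66% of all genes tested. H2-Aa and H2-Ab1 were listed at 0, but the table repeats both symbols with a number, so these zeros are not read as absence. The agonist's target gene Abca1, a cholesterol exporter, averaged 85.2 ± 5.42 CPM in RGX-104 and 8.13 ± 0.569 CPM in DMSO (SD, n = 4 each).

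Replication is prepared in G1, when Cdc6 and Cdt1 load the ring-shaped MCM helicase on origins. In S phase the helicase is activated, primase and the polymerases copy the strands behind it, and sliding clamps, flap removal and ligation finish them while chromatin is rebuilt. The transcription factors of the E2F family switch on many of these genes together, and activated CD8 T cells are known for very fast division.

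None of the 35 replication genes rose or fell in RGX-104 libraries at an adjusted p under 0.05, against 2.66% of all genes tested (324 of 12162; edgeR's quasi-likelihood test with Benjamini-Hochberg adjustment). DESeq2 and limma-voom called 0 of the 35 as well. Their log2 fold changes, RGX-104 over DMSO, ran from -0.26 for Slbp to 0.19 for E2f1, with 18 above 0, 17 below 0 and a median of 0.0062. The median over all genes tested was 0.0028. In 25 of the 35 genes the difference was under 0.1 on the log2 scale.

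The intervals around these differences were narrow. The 95% interval of the log2 fold change lay inside ±0.25 (1.19-fold) for 28 of the 35 genes and inside ±0.5 (1.41-fold) for 34, with Slbp as the exception. The half-width of the interval was 0.084 to 0.33 on the log2 scale, with a median of 0.14. An unadjusted p under 0.05 was reached by 6 genes, 2 higher and 4 lower, which is 17.1% of the members against 13.8% of all genes tested. The count of 6 was 3 without RGX-104 replicate 6, 2 without RGX-104 replicate 7 and 7 without RGX-104 replicate 5. Leaving out each library in turn gave 2 to 7, and the other fits to all 8 libraries each gave 6. In RNA from a whole population, a change in the share of cells in S phase and a change in RNA per S phase cell cannot be told apart.

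**Figure D1:**
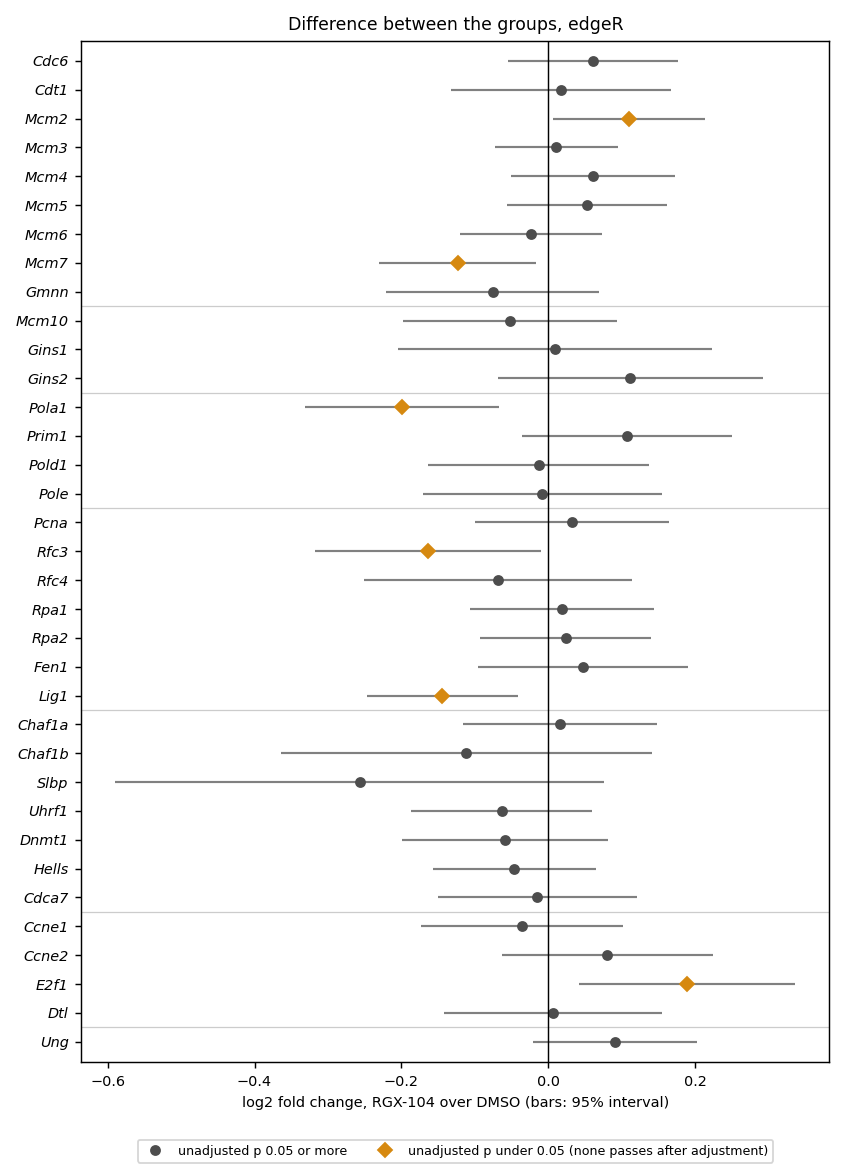
Log2 fold change of each of the 35 genes, RGX-104 over DMSO, with its 95% interval from edgeR; genes are ordered by role and grey lines part the roles. The 6 diamonds mark an unadjusted p under 0.05, none of the genes passed after adjustment, and the intervals of 29 genes include 0.

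A feature that many of the 35 genes share, and that did not enter their choice, is the core E2F motif in the promoter. RefSeq promoter windows on GRCm38.p6 ran from 250 bases before to 50 bases after an annotated transcript start. They were found for 29 of the 35 genes (36 windows). Ccne2, Gins1, Gins2, Gmnn, Mcm4 and Pole had no entry. The motif was searched as TTTCCCGC, TTTGGCGC, TTTCGCGC or TTTGCCGC on both strands, where a match on one strand can overlap a match on the other. It was present in 15 of the 36 windows (41.7%), each of a different gene, against 744 of all 32851 windows (2.26%). The E2F motif was also present in 20 of 63 windows (31.7%) of further replication genes, described below. Among the windows of G2 and mitosis genes it was present in 1 of 31 (3.23%). Those windows held another cell cycle motif, the CHR element TTTGAA, in 23 of 31 cases (74.2%). The CHR element was in 3 of 36 windows (8.33%) of the 35 genes, 12 of 63 (19.0%) of the further replication genes and 17.9% of all windows. A match describes letters only and not binding.

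Parts of 6 windows show matches before the window's transcript start, in genes of licensing, synthesis, chromatin and Cdt1 destruction. In Cdca7 and Uhrf1, not shown, all matches lay before that start too. The parts of Cdc6, Pola1 and Hells lie inside the gene's span (98907709 to 98923942, 93304766 to 93632387 and 38930262 to 38970470). Their matches thus precede a transcript start within the gene and not the gene's outermost start. Each is written 5′ to 3′ on the gene's strand, with the motif or its reverse complement in capitals.
Mcm5 (chr8:75109332-75109391, plus strand): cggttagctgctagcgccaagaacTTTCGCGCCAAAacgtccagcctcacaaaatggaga
Mcm6 (chr1:128359735-128359825, minus strand): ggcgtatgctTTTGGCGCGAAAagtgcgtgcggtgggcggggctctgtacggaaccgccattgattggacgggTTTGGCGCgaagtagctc
Cdc6 (chr11:98907987-98908046, plus strand): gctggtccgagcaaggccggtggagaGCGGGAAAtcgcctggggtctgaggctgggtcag
Pola1 (chrX:93632260-93632319, minus strand): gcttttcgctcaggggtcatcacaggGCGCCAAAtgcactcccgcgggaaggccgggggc
Hells (chr19:38930902-38930961, plus strand): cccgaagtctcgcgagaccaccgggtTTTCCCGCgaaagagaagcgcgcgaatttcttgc
Dtl (chr1:191575545-191575604, minus strand): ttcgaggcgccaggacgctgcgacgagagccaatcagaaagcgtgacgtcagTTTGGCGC
In Mcm5, and in the first block of Mcm6, 2 matches on opposite strands overlap and form a longer block. The motif of Dtl ends at the last base before the start.

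The 15 genes with a match had log2 fold changes between -0.20 and 0.061 with a median of -0.023. The 14 genes whose window held no match had values between -0.26 and 0.19 with a median of 0.021. Both sets spanned 0, and neither held a called gene.

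Among the licensing genes, 6 of 9 log2 fold changes were above 0 and none was called. The MCM subunits Mcm2 to Mcm7 form the hexameric helicase that is loaded on origins. Mcm2 (chromosome 6, 88883474 to 88898780) was at 267, 274, 278 and 277 CPM in RGX-104 replicates 5 to 8, against 261, 244, 254 and 257 CPM in DMSO replicates 1 to 4. It was the only one of the 35 genes whose groups did not overlap, where 8.2% of all genes tested had groups without overlap (3.88% higher and 4.32% lower in RGX-104). Its log2 fold change was 0.11 ± 0.050 (SE; adjusted p = 0.327). Stretches of 50 bases in the last 500 bases of its transcript recur in 7 other genes, among them Uba1 and Wdr82, and make up 11.3% of that end.

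Mcm7 (chromosome 5, 138164583 to 138172111) was at 1252, 1091, 1113 and 1089 CPM in RGX-104, against 1342, 1190, 1258 and 1161 CPM in DMSO. Replicates 6, 7 and 8 of RGX-104 were below every DMSO library, and replicate 5 was within the DMSO range. The log2 fold change was -0.12 ± 0.052 (adjusted p = 0.273). The gene model Gm5487 shares 22.8% of the 50-base stretches of its transcript end, so its count is uncertain in that part. Mcm2 and Mcm7, 2 subunits of the same ring, thus had differences of opposite sign.

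The other 4 ring subunits lay closer to 0. Mcm3 was at 926, 932, 944 and 913 CPM in RGX-104, against 924, 931, 938 and 894 CPM in DMSO, and the 95% interval of its fold change was 0.951 to 1.07. Mcm4 was at 404, 398, 361 and 366 CPM in RGX-104, against 341, 378, 368 and 380 CPM in DMSO. Mcm5 averaged 334 ± 10.7 CPM in RGX-104 and 322 ± 18.1 CPM in DMSO, and Mcm6 442 ± 14.6 CPM in RGX-104 and 450 ± 10.7 CPM in DMSO (SD, n = 4 each). In all 4 the groups overlapped.

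No gene of helicase loading was called either. Cdc6, the ATPase that opens the way for loading, was at 171, 183, 186 and 180 CPM in RGX-104, against 177, 174, 170 and 170 CPM in DMSO (log2 fold change 0.061 ± 0.056, adjusted p = 0.691). Cdt1, which brings the MCM ring to the origin, was at 126, 133, 137 and 133 CPM in RGX-104, against 127, 112, 144 and 140 CPM in DMSO. All 4 RGX-104 values lay within the DMSO range, and the log2 fold change was 0.017 ± 0.072. Gmnn encodes geminin, the inhibitor of Cdt1, and averaged 97.5 ± 4.77 CPM in RGX-104 and 103 ± 6.53 CPM in DMSO (SD, n = 4 each; log2 fold change -0.076, adjusted p = 0.696).

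The 3 genes of helicase activation gave no call. Mcm10, which is needed to turn the loaded ring into a moving helicase, was at 189, 160, 152 and 154 CPM in RGX-104, against 178, 177, 166 and 157 CPM in DMSO. Replicate 5 of RGX-104 was the highest of the 8 libraries and replicates 7 and 8 the lowest. Gins1 and Gins2 encode subunits of the GINS complex, a part of the active helicase. Gins1 averaged 45.2 ± 5.32 CPM in RGX-104 and 44.9 ± 3.34 CPM in DMSO (SD, n = 4 each). Gins2 was at 56.5, 51.9, 50.7 and 51.0 CPM in RGX-104, against 46.7, 47.5, 49.5 and 50.7 CPM in DMSO, and the lowest RGX-104 library was level with the highest DMSO library. The Gins2 difference of 0.11 on the log2 scale had an adjusted p of 0.622, and its last 500 exonic bases lie wholly within exons of Gse1 on the opposite strand.

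**Figure D2:**
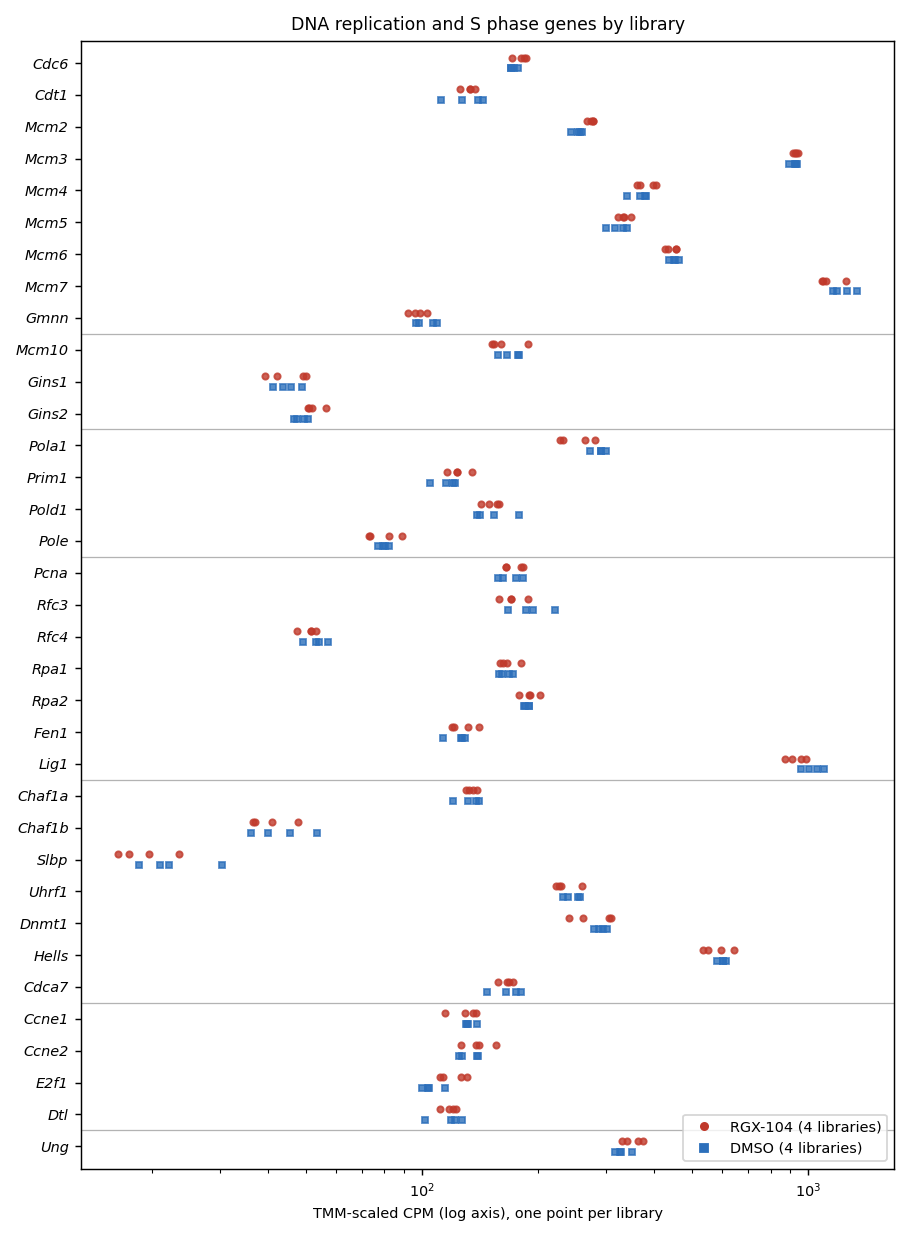
TMM-scaled CPM of each of the 35 genes in each library on a log axis, with RGX-104 as circles above DMSO as squares and grey lines between the roles. The 2 sets of points lie over each other in every row except Mcm2, whose RGX-104 points (267 to 278 CPM) are all to the right of its DMSO points (244 to 261 CPM).

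Of the polymerase and primase genes, Pola1 had the smallest p of all 35 members. Pola1 encodes the catalytic subunit of polymerase alpha, which starts every new strand from an RNA primer (chromosome X, 93304766 to 93632387). It was at 281, 265, 228 and 231 CPM in RGX-104, against 300.1, 290.4, 292 and 272 CPM in DMSO. Replicates 6, 7 and 8 of RGX-104 were below every DMSO library, and replicate 5 lay inside the DMSO range. The log2 fold change was -0.20 ± 0.064 (95% interval -0.33 to -0.067; adjusted p = 0.120), and its p ranked 510 among the 12162. Without RGX-104 replicate 5 the difference was -0.26 with an adjusted p of 0.0284, the only setting of 14 in which any of the 35 genes was called. Over all 14 settings its adjusted p ran from 0.0284 to 0.340.

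Prim1, the primase subunit that makes the RNA primer for polymerase alpha, went the other way in sign. It was at 135, 124, 123 and 116 CPM in RGX-104, against 122, 121, 116 and 105 CPM in DMSO (log2 fold change 0.11 ± 0.069, adjusted p = 0.523). Pold1 and Pole are the catalytic subunits of the polymerases that extend the lagging and the leading strand. Pold1 averaged 152 ± 7.15 CPM in RGX-104 and 153 ± 17.9 CPM in DMSO, and Pole 79.3 ± 7.64 CPM in RGX-104 and 79.8 ± 2.16 CPM in DMSO (SD, n = 4 each). Their log2 fold changes were -0.013 and -0.0084.

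In the group of clamp, clamp loader, single-strand binding and strand joining genes, 2 of 7 had an unadjusted p under 0.05, both lower in RGX-104. That is 28.6%, against 13.8% of all genes tested in either direction, and the difference was not tested. Lig1, the ligase that seals Okazaki fragments (chromosome 7, 13277175 to 13311426), was at 987, 907, 956 and 873 CPM in RGX-104, against 1057, 1005, 1097 and 956 CPM in DMSO. Replicates 6 and 8 of RGX-104 were below every DMSO library, replicate 7 was level with the lowest of them and replicate 5 was above it. The log2 fold change was -0.14 ± 0.050 (adjusted p = 0.159). Rfc3, a subunit of the loader that opens the sliding clamp, was at 188, 170, 170 and 158 CPM in RGX-104, against 194, 221, 186 and 167 CPM in DMSO. Its DMSO libraries differed more from each other than its RGX-104 libraries did, and the log2 fold change was -0.16 ± 0.074 (adjusted p = 0.327). A second loader subunit, Rfc4, had a log2 fold change of -0.069 ± 0.088.

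Pcna, the sliding clamp itself, was at 181, 183, 166 and 165 CPM in RGX-104, against 157, 176, 163 and 183 CPM in DMSO. The groups overlapped, and the 95% interval of the fold change was 0.934 to 1.12. Rpa1 and Rpa2, subunits of the protein that coats single-stranded DNA, had log2 fold changes of 0.018 and 0.024. Fen1, the nuclease that removes the primer flap, averaged 128 ± 10.1 CPM in RGX-104 and 124 ± 7.22 CPM in DMSO (SD, n = 4 each). Most of its last 500 exonic bases (443) also lie in the exon of Gm10143 on the opposite strand.

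**Figure D3:**
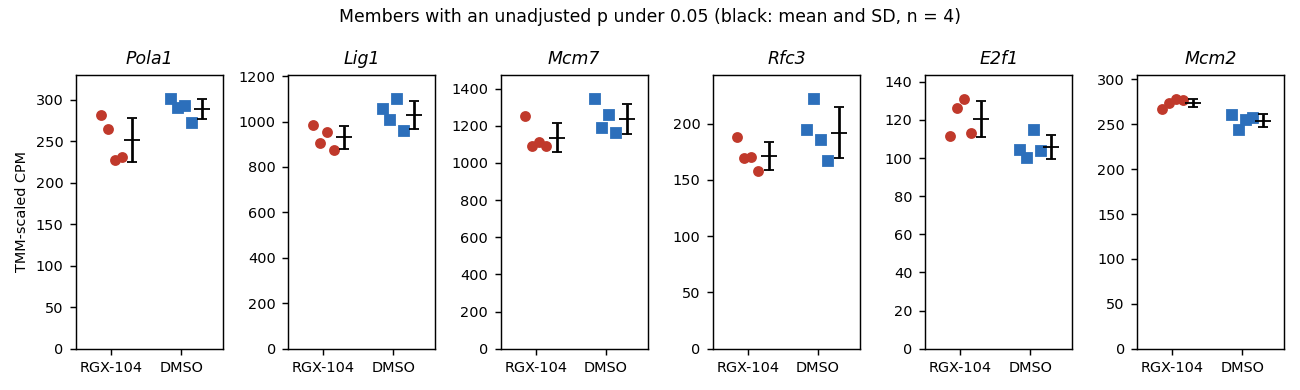
TMM-scaled CPM in each library, with RGX-104 left of DMSO, for the 6 genes with an unadjusted p under 0.05; axes start at 0 and black marks give the mean and SD of 4 libraries. Pola1, Lig1, Mcm7 and Rfc3 have lower RGX-104 means and E2f1 and Mcm2 higher ones, and in each gene except Mcm2 the groups overlap.

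Of the 7 genes that rebuild chromatin and DNA methylation behind the fork, 6 had log2 fold changes below 0 and none an unadjusted p under 0.05. Hells, a chromatin remodeller needed for DNA methylation, was at 644, 596, 533 and 552 CPM in RGX-104, against 603, 613, 602 and 582 CPM in DMSO. Dnmt1, the maintenance DNA methyltransferase, was at 305, 310, 262 and 241 CPM in RGX-104, against 288, 302, 295 and 279 CPM in DMSO. In both genes replicates 7 and 8 of RGX-104 were below all other libraries, while replicate 5 was above every DMSO library. Their log2 fold changes were -0.046 ± 0.053 and -0.059 ± 0.067 (SE).

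Uhrf1, which reads hemimethylated DNA and recruits Dnmt1, was at 260.4, 227, 229 and 223 CPM in RGX-104, against 232, 256, 254 and 239 CPM in DMSO. It too had its highest value in RGX-104 replicate 5, with the other 3 RGX-104 libraries below the DMSO range. Cdca7, the partner that brings Hells to chromatin, averaged 166 ± 6.25 CPM in RGX-104 and 168 ± 14.6 CPM in DMSO (SD, n = 4 each). Chaf1a and Chaf1b, subunits of the chromatin assembly factor that deposits new histones, had log2 fold changes of 0.016 ± 0.064 and -0.11 ± 0.12. The 3′ end of Chaf1a overlaps Ubxn6 on the opposite strand over 443 of 500 bases.

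Slbp binds the stem-loop of replication-dependent histone mRNAs, and its RNA had the least precise value of the 35. It was at 23.6, 19.7, 17.4 and 16.4 CPM in RGX-104, against 30.4, 18.6, 22.1 and 21.0 CPM in DMSO. The spread within DMSO (22.3% of the mean) was larger than in the median member (5.87%). Its log2 fold change of -0.26 ± 0.16 had a 95% interval of -0.59 to 0.076 (adjusted p = 0.511).

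Among the S phase regulators, E2f1 had the largest log2 fold change above 0 of the 35 genes. E2f1 encodes the founding member of the E2F family (chromosome 2, 154559400 to 154569892). It was at 112, 126, 131 and 113 CPM in RGX-104, against 104, 100, 115 and 104 CPM in DMSO. Replicates 6 and 7 of RGX-104 were above every DMSO library, and replicates 5 and 8 lay between the highest DMSO library and the others. The log2 fold change was 0.19 ± 0.071 (95% interval 0.042 to 0.34; adjusted p = 0.210).

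Ccne1 and Ccne2 encode the E cyclins, which with Cdk2 drive entry into S phase. Ccne1 was at 136, 129, 138 and 115 CPM in RGX-104, against 130, 139, 132 and 131 CPM in DMSO, and replicate 8 of RGX-104 was the lowest of the 8. Ccne2 was at 156, 138, 126 and 141 CPM in RGX-104, against 127, 125, 139 and 140 CPM in DMSO, and replicate 5 of RGX-104 was the highest. Neither cyclin was called (adjusted p = 0.872 and 0.666). Dtl, the adaptor through which a ubiquitin ligase destroys Cdt1 during S phase, averaged 118 ± 4.85 CPM in RGX-104 and 118 ± 11.1 CPM in DMSO (SD, n = 4 each). Ung, the glycosylase that removes uracil from new DNA, was at 339, 362, 374.5 and 329 CPM in RGX-104, against 327, 351, 326 and 316 CPM in DMSO (log2 fold change 0.090 ± 0.054, adjusted p = 0.486).

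The 35 genes did not take equal shares of each library. Together they made up 0.920, 0.902, 0.883 and 0.855% of counts in RGX-104 replicates 5 to 8, against 0.908, 0.919, 0.912 and 0.892% in DMSO replicates 1 to 4. The RGX-104 libraries thus held both the highest share (replicate 5) and the lowest (replicates 7 and 8). Of the 35 genes, 9 had their lowest level of all libraries in RGX-104 replicate 8 and 9 their highest in RGX-104 replicate 5 (25.7% each), against 12.9% and 12.1% of all genes tested. Mcm10, Pola1, Slbp, Dnmt1 and Hells were lower in both replicates 7 and 8 than in every other library, which is 14.3% of the members against 5.49% of all genes tested. Below the whole DMSO range were 13 members in replicate 8, 8 in replicate 7, 7 in replicate 6 and 4 in replicate 5, while 7, 8, 12 and 11 members in the same libraries were above it. Of all genes tested, 22.4 to 23.8% were below the range and 22.3 to 23.5% above it in these libraries, against 37.1% of the members below it in replicate 8 and 34.3% above it in replicate 6. These differences from all genes were not tested.

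**Figure D4:**
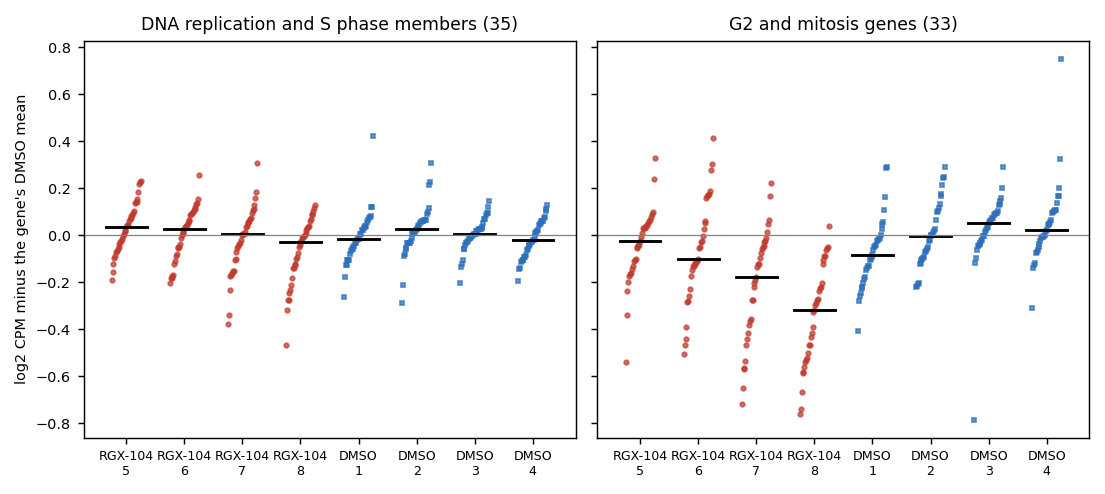
Log2 CPM of each gene minus that gene's mean over the DMSO libraries, for the 35 replication genes (left) and 33 G2 and mitosis genes (right), with 1 point per gene, RGX-104 libraries left of DMSO libraries and a black line at the median. Medians of the replication genes lie between -0.029 and 0.033 in RGX-104 libraries, and those of the G2 and mitosis genes between -0.32 and -0.026.

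Genes of G2 and mitosis, which act after replication, differed more between libraries. For 33 of these the median deviation from the DMSO mean was -0.026, -0.10, -0.18 and -0.32 on the log2 scale in RGX-104 replicates 5 to 8, against -0.085, -0.0021, 0.053 and 0.021 in DMSO replicates 1 to 4. RGX-104 replicates 6, 7 and 8 were below the DMSO values and replicate 5 was among them. The replication genes had 0.033, 0.026, 0.0039 and -0.029 in RGX-104, against -0.015, 0.027, 0.0051 and -0.020 in DMSO. Of the 33 G2 and mitosis genes 3 fell (Nusap1, Hmgb2 and Cenpe), none rose and 30 had a log2 fold change below 0, with a median of -0.13. Over all genes tested 1.78% fell, 0.888% rose and 49.4% had a log2 fold change below 0. Without RGX-104 replicate 7, RGX-104 replicate 8 or DMSO replicate 2 the count was 0, without DMSO replicate 3 it was 1, and without RGX-104 replicate 5 it was 6. The difference between the replication genes and the G2 and mitosis genes was not tested.

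Nusap1, a spindle protein, was at 49.7, 42.4, 35.6 and 35.1 CPM in RGX-104, against 51.5, 69.6, 60.7 and 53.9 CPM in DMSO. All 4 RGX-104 libraries were below all 4 DMSO libraries, and the log2 fold change was -0.53 ± 0.12 (adjusted p = 0.0119; at most 0.0664 on leaving out a library). Hmgb2, a chromatin protein, averaged 280.5 ± 37.1 CPM in RGX-104 and 357 ± 38.9 CPM in DMSO, and Cenpe, a kinetochore motor, 104 ± 10.6 CPM in RGX-104 and 128 ± 11.8 CPM in DMSO (SD, n = 4 each; log2 fold changes -0.35 and -0.29, edgeR adjusted p = 0.0171 and 0.0449). Hmgb2 was not called by DESeq2 (adjusted p = 0.117). Of the 35 replication genes, none had every RGX-104 library below every DMSO library, against 4.32% of all genes tested. Of the 33 G2 and mitosis genes 2 did. These shares were not compared by a test.

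**Figure D5:**
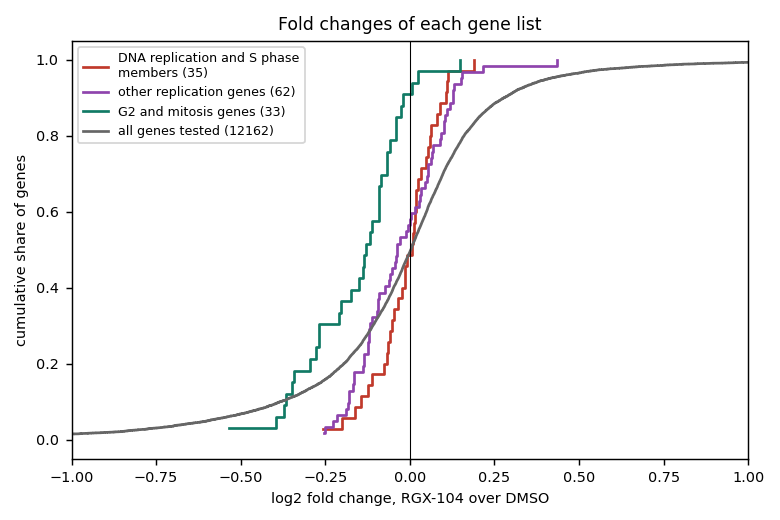
Cumulative share of genes by log2 fold change, RGX-104 over DMSO, for the 35 replication genes, 62 other replication genes, 33 G2 and mitosis genes and all 12162 genes tested; the axis is drawn from -1 to 1 and all genes reach beyond it. The curve of the replication genes crosses 0 near its middle (median 0.0062), and that of the G2 and mitosis genes lies to the left (median -0.13).

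Beyond the 35 genes, 65 further genes of the pathway were looked at, among them the origin recognition complex, the remaining polymerase, GINS and clamp loader subunits, checkpoint factors, other E2F members and enzymes of deoxynucleotide supply. Of these 62 were tested. Cdc45 and Pold4 are listed at 0 in all libraries and Atad2 had 9 reads in all; the table repeats each of these symbols with a number, so these values are not read as absence of expression. Of the 62, 1 rose and none fell, against 0.888% of all genes tested called higher and 1.78% called lower. Their median log2 fold change was -0.038, with 26 above 0 and 36 below 0.

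The gene that rose was Tfdp1, which encodes DP1, the partner with which E2F proteins bind DNA (chromosome 8, 13338725 to 13378448). It was at 136, 142, 138 and 128 CPM in RGX-104, against 99.9, 91.7, 109.9 and 101 CPM in DMSO. Every RGX-104 library was above every DMSO library. The log2 fold change was 0.43 ± 0.068 (adjusted p = 0.000412), and it ran from 0.39 to 0.48 over the 14 settings, with an adjusted p of at most 0.00448.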

How the data were processed

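RNA of sorted OT-I CD8+ T cells was sequenced in 8 libraries, 4 with RGX-104 and 4 with DMSO. Libraries were made with a Lexogen 3′ FWD kit per the labels' protocols, so reads lie near transcript ends. The table that the authors deposited holds raw whole-number counts of reads for each gene. The submitters' processing notes list GRCm38, STAR 2.7.8a, R 4.1.0 and DESeq2 1.4. Not given in the sources used here are the counter, its strand setting and its handling of multiply mapped reads or molecular identifiers. In GENCODE M21, 8 members have at least 100 bp of exon in common with another gene on the opposite strand. For Mcm7, Lig1 and Slbp the overlap takes in 0 of the last 500 exonic bases. For Gins2, Rfc4, Fen1, Chaf1a and Ccne2 it reaches into them, and without a stated strand setting the counts of these genes are less certain. Further, 7 members share 50-base stretches of their last 500 transcript bases with other genes. Their counts are less certain because the handling of multiply mapped reads is not given. If molecular identifiers were not used, PCR copies were counted as separate reads, and a count is then not a number of independent molecules.

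The test across genes was edgeR 4.0.16 in R 4.3.3 on all 8 libraries (filterByExpr by group, TMM, quasi-likelihood test, two-sided, group as the only term), with Benjamini-Hochberg adjustment over 12162 genes and a threshold of 0.05. A standard error is the log2 fold change divided by the square root of F; 95% intervals use the t distribution with the moderated degrees of freedom. CPM divide counts by the library size after TMM scaling. The common biological coefficient of variation came to 14.5%. The fits were tested on simulated data. Alternatives were DESeq2 size factors, library totals, no filter, DESeq2 1.42.0, limma-voom (limma 3.58.1), a robust fit and leaving out each library. Coordinates and promoters are RefSeq, GRCm38.p6. All 35 members are named, with values in every library for 2 to 4 genes of a role with the highest level or the smallest p, some others besides, and for any with an unadjusted p under 0.05; of the further lists, genes with an adjusted p under 0.05 are named. Members, lists and tests were chosen with earlier results of these data known. No column belonged to another series (0 columns).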

Additional observations from a re-analysis of the deposited data

Results flagged for a closer look

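Within a group of 4 libraries, 2 of 70 sets of member values (35 genes in each of 2 groups) had 1 library far from the other 3 by Dixon's 95% criterion for 4 samples; chance alone flags about 1 set in 20. Both were in RGX-104 replicate 5. Mcm7 was at 1250 CPM there, against 1089 to 1113 in the other RGX-104 libraries. Uhrf1 was at 260 CPM there, against 223 to 229 in the other RGX-104 libraries.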

How the results depend on the processing

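No paired analysis was made. The replicate numbers 5 to 8 of RGX-104 and 1 to 4 of DMSO are running sample numbers, and the labels do not say whether libraries were paired. The count of replication genes called higher was 0 in all 14 settings, and the count called lower was 0 in all but 1 (range 0 to 1 on leaving out each library). The median log2 fold change of the 35 genes stayed between -0.024 and 0.014. With DESeq2, 167 of all genes were called higher, against 108 with edgeR, and leaving out each library gave 57 to 93; for G2 and mitosis genes called lower the range was 0 to 6. Hmgb2 was not called by DESeq2 (adjusted p = 0.117), and Nusap1, Hmgb2 and Cenpe each lost the call on leaving out some libraries (adjusted p up to 0.0664, 0.0962 and 0.180). The cause was not tested.

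Of the 35 genes, 20 kept the sign of their log2 fold change in all 14 settings. The other 15 were not called in any setting and changed sign on leaving out some library. Their ranges over the 8 libraries left out were -0.068 to 0.018 for Ccne1, -0.070 to 0.025 for Cdca7, -0.048 to 0.067 for Cdt1, -0.027 to 0.045 for Chaf1a, -0.20 to 0.0001 for Chaf1b, -0.11 to 0.0066 for Dnmt1, -0.057 to 0.047 for Dtl and -0.0007 to 0.079 for Fen1. They were -0.044 to 0.072 for Gins1, -0.0025 to 0.020 for Mcm3, -0.0016 to 0.072 for Pcna, -0.057 to 0.068 for Pold1, -0.067 to 0.030 for Pole, -0.022 to 0.042 for Rpa1 and -0.0062 to 0.054 for Rpa2.

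With 4 libraries per group, a difference had to exceed 0.084 to 0.33 on the log2 scale, depending on the gene, to reach an unadjusted p of 0.05, and a larger one to be called after adjustment.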
